A study of Mus musculus with 17 samples.

Results

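Transcript levels of 8 platelet receptor genes were followed in mouse fetal liver cells: Gp1ba, Gp1bb, Gp5 and Gp9, which encode the chains of the GPIb-IX-V complex, Gp6 and Clec1b, which encode the platelet activating receptors GPVI and CLEC-2, and Treml1 and Treml2, which encode the TREM-like receptors TLT-1 and TLT-2. The genes were chosen by name, by a rule that uses no measured values but with earlier results of these data known, and all 8 were found among the 46880 genes listed in all 3 count tables of the series. They were measured by RNA sequencing in 17 libraries. Embryos were taken at E12.5 to E13.5 from the mouse strain B6J.129(Cg) with the allele Gt(ROSA)26Sortm1.1 (Fezh/J), in which the CAG promoter drives cas9* and EGFP. Of the 6 groups, 5 carried the guide sgGata1 in all their libraries and are named Gata1s, after GATA1s, a short form of this blood cell transcription factor that lacks the N-terminal activation domain. LUC (a luciferase control transgene, n = 3) and Arid3a (n = 3) had 1 µg/mL doxycycline for 48 h. The groups sh-ctrl (a control short hairpin, n = 3), shArid3a (a hairpin against Arid3a, n = 2, numbered 1 and 3) and miR-125b (n = 3) had 1 µg/mL doxycycline for 10 days. WT (n = 3) carried the transgenes sgLuc and shLuc, and its treatment label is a dash. Nothing in the labels says whether the libraries of a group came from separate embryos or cultures, so the p-values measure only the spread between these libraries, which may be technical. According to its stated design, the study changed the level of Arid3a, a DNA-binding protein of the ARID family, in Gata1s cells.

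The GPIb-IX-V complex is the platelet receptor for von Willebrand factor: GPIbα carries the binding site, GPIbβ is joined to it by disulfide bonds, GPIX stabilises the complex at the surface, and GPV is a more loosely bound chain. Lack of GPIbα, GPIbβ or GPIX causes the bleeding disorder Bernard-Soulier syndrome, and these genes are switched on late in megakaryocyte maturation, with GATA1 and ETS factors among their known regulators. GPVI binds collagen and signals through the Fc receptor γ-chain, while CLEC-2 binds podoplanin and signals through a tyrosine motif of its own, and both lead to the kinase SYK. TLT-1 is stored in platelet granules and binds fibrinogen, whereas TLT-2 is better known from lymphoid and myeloid cells.

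Sequences that bear on the comparisons are the microRNA of the miR-125b group and matches to its seed in the 8 genes' 3′ untranslated regions. They also include the promoters of the GPIb-IX-V chains, whose transcripts did not move together. The mature microRNA, from RefSeq (GRCm38.p6), is encoded at chr9:41581940-41581961 (Mir125b-1) and at chr16:77646279-77646300 (Mir125b-2), and its seed, bases 2 to 8, is in capitals.
mmu-miR-125b-5p: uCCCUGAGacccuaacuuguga
In the 3′ untranslated regions of GENCODE M21 (GRCm38), a match to the 7 seed bases (CTCAGGG) was found in 2885 of 21039 genes (13.7%), and the match with a following A (CTCAGGGA) in 1022 genes (4.86%). No such match lies in the annotated 3′ untranslated regions of Gp1ba, Gp1bb, Gp5, Gp9, Gp6 or Clec1b. Treml1 has 1 match, at chr17:48367022-48367028, and Treml2 has 2, at chr17:48311863-48311869 and chr17:48311999-48312005, none of them followed by A. The Arid3a region holds 6 matches, of which 2, at chr10:79952887-79952893 and chr10:79953820-79953826, are followed by A. Each is shown on the strand of its transcript with the match in capitals. Matches to only a part of the 7 seed bases were not searched. A match is a description of the sequence, and its use in these cells was not tested.
Treml1: gtcagcgcctggtgaCTCAGGGctccaatc
Treml2, first match: agctttctcgtacatCTCAGGGccacttgc
Treml2, second match: tcaattgagactctcCTCAGGGgactctag
Arid3a, first match with A: agtggcctcctgtgcCTCAGGGAtgacagt
Arid3a, second match with A: tccatgggtaactggCTCAGGGAtatagca

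Of the 8 genes, 7 matched an entry of the RefSeq promoter table (GRCm38.p6), which gives 250 bases before and 50 after a gene's start, and Treml2 did not. These windows were searched on both strands for GATA letters (AGATAA or TGATAA), ETS letters (CCGGAA or AGGAAG) and RUNX letters (TGTGGT). Matches are in capitals below, 5′ to 3′ on the gene's strand, for the 4 chain genes: Gp1ba at chr11:70638872-70639171 (plus), Gp1bb at chr16:18622354-18622653 (minus), Gp5 at chr16:30310732-30311031 (minus) and Gp9 at chr6:87777820-87778119 (plus).
Gp1ba: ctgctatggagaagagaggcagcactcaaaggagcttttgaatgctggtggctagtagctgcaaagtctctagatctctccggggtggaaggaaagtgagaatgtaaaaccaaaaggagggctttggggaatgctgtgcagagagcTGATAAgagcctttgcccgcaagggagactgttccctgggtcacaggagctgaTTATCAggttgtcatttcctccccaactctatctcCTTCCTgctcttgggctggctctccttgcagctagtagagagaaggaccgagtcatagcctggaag
Gp1bb: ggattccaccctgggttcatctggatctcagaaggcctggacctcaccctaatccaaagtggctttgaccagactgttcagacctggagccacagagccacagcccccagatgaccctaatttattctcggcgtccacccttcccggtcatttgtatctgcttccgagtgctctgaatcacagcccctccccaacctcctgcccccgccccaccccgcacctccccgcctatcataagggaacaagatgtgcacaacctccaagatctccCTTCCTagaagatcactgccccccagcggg
Gp5: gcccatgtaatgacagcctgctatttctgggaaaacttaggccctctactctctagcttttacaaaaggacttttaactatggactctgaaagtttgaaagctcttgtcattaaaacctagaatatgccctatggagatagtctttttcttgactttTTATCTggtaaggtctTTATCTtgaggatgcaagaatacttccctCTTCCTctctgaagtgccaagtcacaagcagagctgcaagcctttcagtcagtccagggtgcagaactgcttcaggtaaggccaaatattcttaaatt
Gp9: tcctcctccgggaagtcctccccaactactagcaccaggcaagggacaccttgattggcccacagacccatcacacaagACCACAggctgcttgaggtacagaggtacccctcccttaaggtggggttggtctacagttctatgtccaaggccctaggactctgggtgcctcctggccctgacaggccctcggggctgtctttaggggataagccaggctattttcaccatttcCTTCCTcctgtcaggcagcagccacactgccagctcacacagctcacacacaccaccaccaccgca
GATA letters were found in the windows of 4 of the 7 genes and in 18.6% of all 32851 promoters of the table. Gp1ba has them starting 104 and 51 bases before the start, Gp5 93 and 77 bases before it, Gp6 144 bases before it and Clec1b 189 bases before and 37 bases after it. ETS letters were found in 4 of 7 windows, those of the chain genes, against 45.2% of all promoters: the match begins 16 bases before the start in Gp1ba and in Gp9, 48 bases before it in Gp5 and 20 bases after it in Gp1bb. RUNX letters were found in the Gp9 window alone of the 7, 171 bases before the start, against 16.8% of all promoters. The windows of Gp1bb and Gp9 held none of the searched GATA letters, which says only that these letters are not in these 300 bases.

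Library totals ran from 16362439 to 40859301 counts, and all 8 genes passed the low-count filter in every fit. Levels are CPM, the reads of a gene scaled to a common library size, with TMM factors over all libraries. They are given with the standard deviation (SD) between libraries, and differences are log2 fold changes with their standard error (SE) and an adjusted p from edgeR's quasi-likelihood test with Benjamini-Hochberg adjustment over all genes. A gene is called changed at an adjusted p under 0.05. Arid3a itself was 58.2 ± 7.59 CPM (SD, n = 3) in sh-ctrl, 21.9 ± 0.674 CPM (n = 2) in shArid3a and 9.98 ± 1.73 CPM (n = 3) in miR-125b. In the group labelled Arid3a it was 65.4 ± 11.0 CPM against 61.7 ± 2.60 CPM in LUC (n = 3 each; log2 fold change 0.08, SE 0.12, edgeR adjusted p = 0.737), so the counts of the mouse gene do not show the transgene, and these are called the libraries labelled Arid3a. Among megakaryocyte markers outside the 8 genes, Itga2b was at 733.8 to 1810 CPM in the Gata1s libraries, while Tubb1, the platelet tubulin, was at most 2.48 CPM in them (16.5 to 23.0 CPM in WT), with 1 library at 0. The summed level of 6 such markers was 2745 to 5036 CPM in Gata1s libraries and 1163 to 1349 CPM in WT. The summed level of 12 granulocyte and monocyte markers was 12.7 to 187.8 CPM in Gata1s libraries and 15760 to 20970 CPM in WT, and that of 7 hepatocyte markers was at most 6.44 CPM anywhere. Fewer cells of a type and less RNA per cell cannot be told apart in such bulk libraries.

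**Figure D1:**
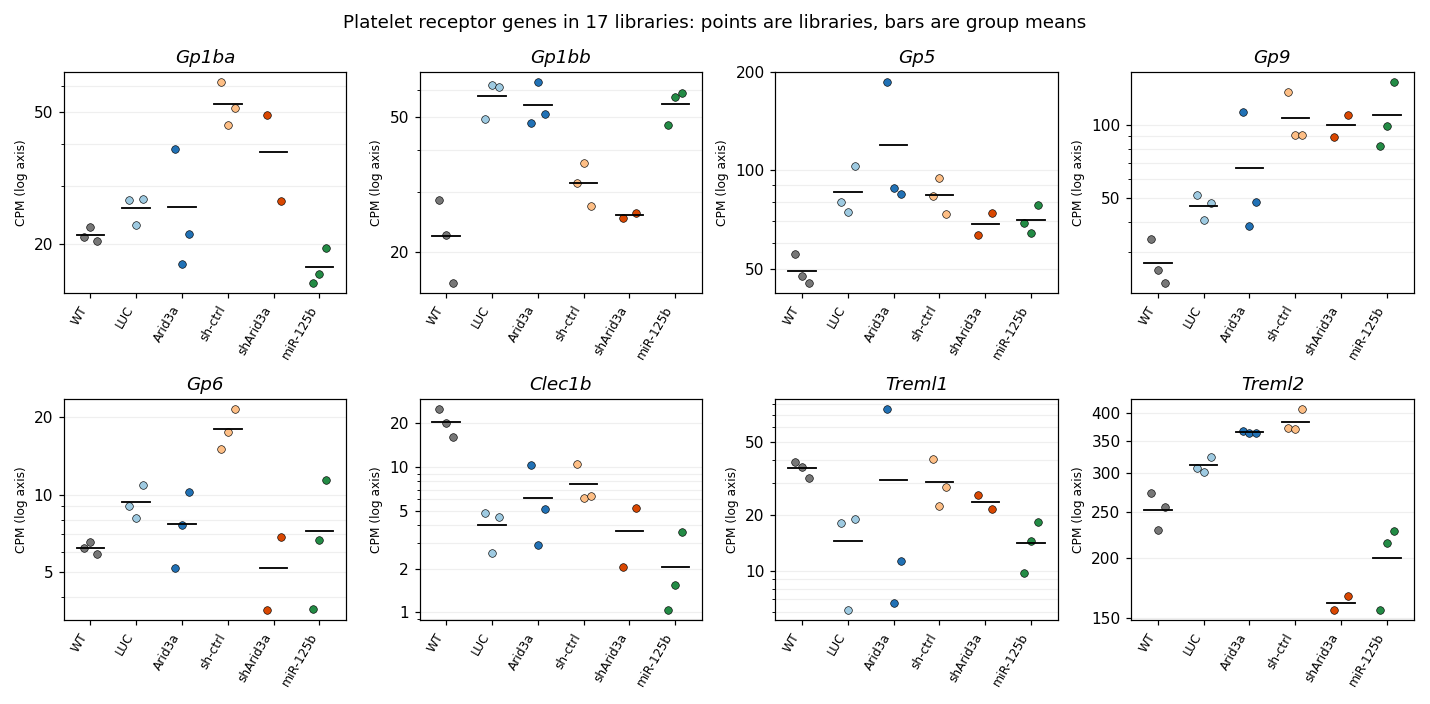
CPM (log axis, 1 panel per gene, each with its own scale) of the 8 receptor genes in the 17 libraries, by group; points are libraries and bars are group means. Gp1ba was lower and Gp1bb higher in miR-125b than in sh-ctrl without overlap, Treml2 was lower in shArid3a and miR-125b, and 1 library labelled Arid3a stood above the other 2 for Gp5, Gp9, Clec1b and Treml1.

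With miR-125b for 10 days, the ligand-binding chain of the GPIb complex fell and its partner chain rose, while the other chains did not pass the test. Gp1ba, which encodes the von Willebrand factor binding chain GPIbα, was at 61.5, 45.6 and 51.3 CPM in the sh-ctrl libraries and at 15.3, 16.3 and 19.5 CPM in the miR-125b libraries. Every miR-125b library was thus below every sh-ctrl library, and the log2 fold change was -1.65 (SE 0.23, edgeR adjusted p = 0.00465). Gp1bb, which encodes GPIbβ, moved the other way. It was at 32.0, 36.6 and 27.2 CPM in sh-ctrl and at 47.3, 57.4 and 58.8 CPM in miR-125b, again without overlap, at 0.76 on the log2 scale (SE 0.16, edgeR adjusted p = 0.0115). The Gp1bb call was lost without sh-ctrl replicate 3 (0.64 on the log2 scale, edgeR adjusted p = 0.056), and the Gp1ba call was kept in all 16 alternative fits.

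Gp5 and Gp9 overlapped between miR-125b and sh-ctrl. Gp5, which encodes GPV, was at 83.5, 94.8 and 73.4 CPM in sh-ctrl and at 69.2, 64.2 and 78.5 CPM in miR-125b (log2 fold change -0.26, SE 0.14, edgeR adjusted p = 0.190). Gp9, which encodes GPIX, was at 137.3, 91.3 and 91.5 CPM in sh-ctrl and at 81.7, 99.0 and 150.8 CPM in miR-125b (log2 fold change 0.04, SE 0.24, edgeR adjusted p = 0.925). The sign of the Gp9 value was negative (-0.14) when counts were scaled by library totals alone, since dropping TMM moves the log2 fold change of every gene in this comparison by -0.185. Under the same scaling Gp5 was called lower (log2 fold change -0.45, edgeR adjusted p = 0.0378), which 1 of 16 alternative fits did.

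Because the chains diverged, their levels were also set against each other within each library, on a per-length scale (CPM per kilobase of gene model), a quantity that does not depend on scaling between libraries. The ratio of Gp1bb to Gp1ba was 0.751, 1.16 and 0.766 in sh-ctrl and 4.47, 5.09 and 4.36 in miR-125b. The ratio of Gp9 to Gp1ba was 6.89, 6.17 and 5.50 in sh-ctrl and 16.5, 18.8 and 23.9 in miR-125b. The ratio of Gp5 to Gp1ba was 1.68, 2.57 and 1.77 in sh-ctrl and 5.61, 4.88 and 4.99 in miR-125b. In all 3 ratios, chosen after the values were seen and given without a test, miR-125b lay above sh-ctrl in every library. The 3 ratios share Gp1ba, which fell, as their denominator, so they are not separate observations. The 2 control groups were not alike in the ratios of Gp1bb and of Gp5. LUC, at 48 h of doxycycline, had ratios of Gp1bb to Gp1ba of 2.64, 3.92 and 3.23, and WT had 1.96, 1.44 and 1.14. The ratio of Gp5 to Gp1ba was 3.67 to 4.68 in LUC and 4.90 to 6.28 in the libraries labelled Arid3a. Gp1bb overlaps Sept5 on the same strand in GENCODE M21, and how such reads were assigned is not given in the sources used here. Sept5 was at 2.48 to 2.76 CPM in sh-ctrl and 1.51 to 2.25 CPM in miR-125b (edgeR adjusted p = 0.314), well under the Gp1bb values. In WT, however, Sept5 was at 31.4 to 40.7 CPM, above Gp1bb at 16.2 to 28.4 CPM. The part of shared reads in the WT level and ratio of Gp1bb was not tested.

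**Figure D2:**
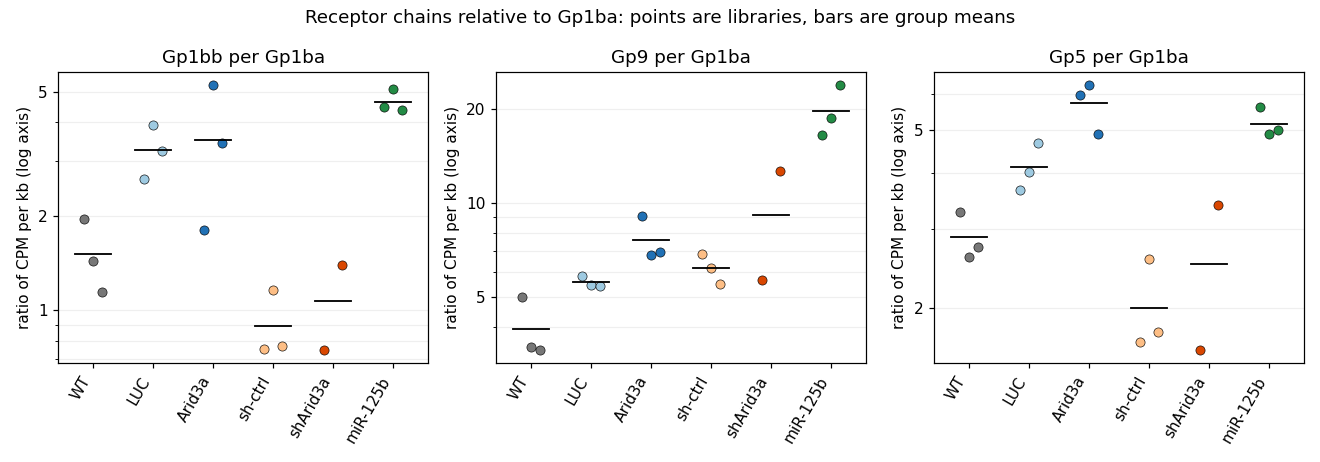
Ratio of CPM per kilobase (log axis) of Gp1bb, Gp9 and Gp5 to Gp1ba in each library, by group; points are libraries and bars are group means. The Gp1bb ratio was 4.36 to 5.09 in miR-125b and 0.751 to 1.16 in sh-ctrl, and the shArid3a libraries, 0.746 and 1.40, lay near sh-ctrl.

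The activating receptors and the TREM-like receptors were all lower with miR-125b. Gp6, the collagen receptor gene, was at 15.1, 17.5 and 21.5 CPM in sh-ctrl and at 3.60, 6.69 and 11.4 CPM in miR-125b (log2 fold change -1.33, SE 0.40, edgeR adjusted p = 0.0354). Clec1b, the podoplanin receptor gene, was at 10.6, 6.09 and 6.37 CPM in sh-ctrl and at 1.03, 1.55 and 3.60 CPM in miR-125b (log2 fold change -1.90, SE 0.51, edgeR adjusted p = 0.0258). The lowest of these values rests on 29 reads. For both genes the groups did not overlap, but each call was lost in 4 of 6 fits that left out a library: Gp6 without sh-ctrl replicate 2 or 3 or miR-125b replicate 1 or 2, and Clec1b without sh-ctrl replicate 1 or 3 or miR-125b replicate 1 or 2, with highest adjusted p-values of 0.116 and 0.074.

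Treml1, which encodes TLT-1, was at 40.5, 22.5 and 28.3 CPM in sh-ctrl and at 9.77, 14.5 and 18.4 CPM in miR-125b (log2 fold change -1.11, SE 0.28, edgeR adjusted p = 0.0201). Its call was lost without sh-ctrl replicate 1 or 3 and in the fit of all 14 Gata1s libraries, where the adjusted p was 0.227. Treml2, which encodes TLT-2, was at 372.9, 370.1 and 407.5 CPM in sh-ctrl and at 156.0, 215.5 and 228.0 CPM in miR-125b (log2 fold change -0.95, SE 0.15, edgeR adjusted p = 0.00621), and its call was kept in all 16 alternative fits. Treml1 and Treml2 are the 2 members with matches to all 7 seed bases. Gp1ba, Gp6 and Clec1b, also called lower, have none, and use of the matches was not tested.

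In all, 6 of the 8 genes were called with miR-125b, 1 higher and 5 lower, beside 24.4% of the 14004 genes tested (12.1% called higher and 12.2% called lower). That even split depends on the scaling: with library totals alone, 890 genes were called higher and 2452 lower, and 7 of the 8 receptor genes were called, with Gp5 added and Gp1bb still the 1 called higher. The groups did not overlap for the same 6 genes, beside 45.2% of all genes tested. The median log2 fold change was -1.03 over the 8 genes and -0.03 over all genes. Without sh-ctrl replicate 3, 2 of the 8 genes were called (Gp1ba and Treml2), and 734 genes in all instead of 3414. Over the same groups, the summed level of 12 erythroid markers was 359.7 to 650.4 CPM in sh-ctrl and 197.6 to 260.3 CPM in miR-125b, and that of the 12 granulocyte and monocyte markers 71.4 to 117.8 CPM and 103.6 to 187.8 CPM. Of the erythroid markers, 3 of 10 tested were called lower and Slc4a1 had 3 counts or fewer in every library of both groups; of the granulocyte and monocyte markers, 3 of 7 tested were called higher, and Itgam, Ly6c2, Cebpe, S100a8 and S100a9 had 3 counts or fewer in every sh-ctrl library. The summed mast cell and basophil markers were at 7.15 to 98.3 CPM in sh-ctrl and at 433.4, 39.4 and 33.8 CPM in miR-125b, with 2 of 9 called higher, the basophil protease genes Prss34 and Mcpt8. The summed hepatocyte markers were at 0.834 to 1.41 CPM and at 4.41 to 6.44 CPM, with both tested markers, Afp and Apoa2, called higher and Alb, Ttr, Fgb and Serpina1a at 3 counts or fewer in every library of both groups. The part of these cells in the receptor values was not tested. The summed level of the 6 megakaryocyte markers overlapped, with 3304 to 5036 CPM in sh-ctrl and 3103 to 3938 CPM in miR-125b, but 2 of the 6 were called lower, Itgb3 (log2 fold change -1.68, edgeR adjusted p = 0.00605) and Itga2b (log2 fold change -0.69, edgeR adjusted p = 0.0329).

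**Figure D3:**
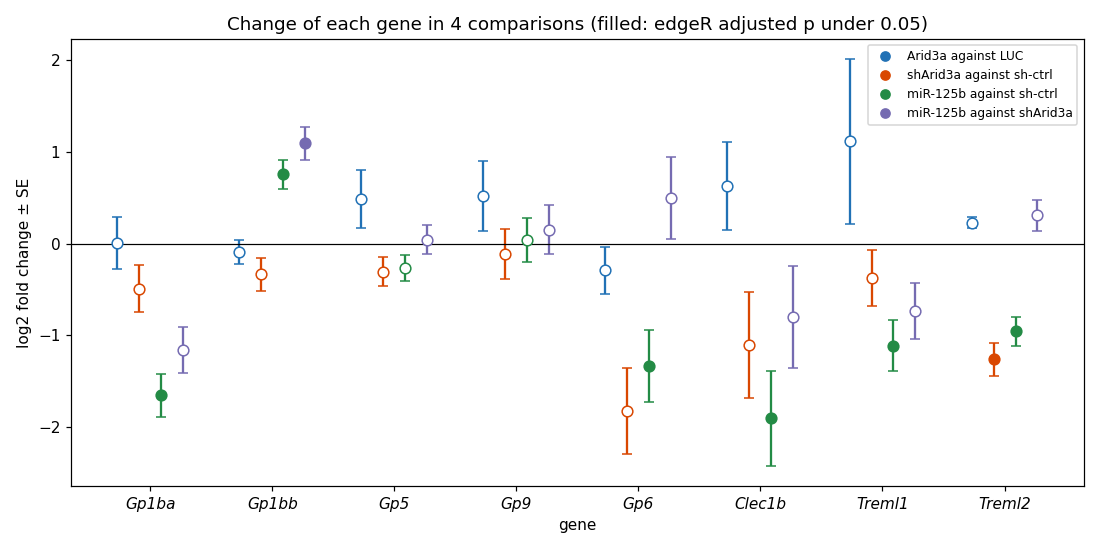
Log2 fold change with its SE for each gene in 4 comparisons (colours), each of which names the treated group first; filled points have an edgeR adjusted p under 0.05. Gp1bb is the only one of the 8 genes called higher with miR-125b, and Treml2 is the only one called in shArid3a. The last 3 comparisons share libraries.

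With the hairpin against Arid3a, Treml2 fell and the other 7 genes did not pass the test. Treml2 was at 156.3 and 167.2 CPM in the 2 shArid3a libraries, below all sh-ctrl libraries (372.9, 370.1 and 407.5 CPM), at -1.26 on the log2 scale (SE 0.18, edgeR adjusted p = 0.0368). The value moved little when any 1 library was left out (-1.30 to -1.23 on the log2 scale), but with fewer libraries the call was lost in all 5 such fits, with adjusted p-values up to 0.461. It was also lost without the ribosomal RNA-like genes. Gp6 was at 3.54 and 6.83 CPM in shArid3a against 15.1, 17.5 and 21.5 CPM in sh-ctrl, a log2 fold change of -1.82 (SE 0.47) that missed the threshold (edgeR adjusted p = 0.101) and passed it in DESeq2, with no low-count filter and in the fit of all 14 Gata1s libraries. Clec1b, at 2.06 and 5.23 CPM, was also below every sh-ctrl library (log2 fold change -1.10, SE 0.57, edgeR adjusted p = 0.252).

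The GPIb-IX-V chains had smaller differences with the hairpin. Gp1ba was at 48.8 and 26.9 CPM, so that 1 shArid3a library lay within the sh-ctrl range and the other below it (log2 fold change -0.49, SE 0.26, edgeR adjusted p = 0.254). Gp1bb was at 25.2 and 26.0 CPM, just below the lowest sh-ctrl library (log2 fold change -0.33, SE 0.18, edgeR adjusted p = 0.259). The log2 fold changes of Gp5 (-0.30), Gp9 (-0.11) and Treml1 (-0.37) had edgeR adjusted p-values of 0.253, 0.818 and 0.465. All 8 values were negative, with 4 genes not overlapping (Gp1bb, Gp6, Clec1b and Treml2), beside 44.0% of all genes tested. The 1 called gene stands beside 0.0857% of the 14004 genes tested, that is, 12 genes, 7 higher and 5 lower (8 higher and 12 lower with library totals alone). The sign of Gp9 turned without sh-ctrl replicate 1 (0.09) or shArid3a replicate 1 (0.02).

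Set directly against the hairpin, miR-125b gave a call for 1 of the receptor genes, while 3 had an unadjusted p under 0.05 (Gp1ba, Gp1bb and Treml1), beside 14.5% of all genes tested, and the same 3 did not overlap, beside 29.5%. Gp1bb was called, with 47.3, 57.4 and 58.8 CPM in miR-125b against 25.2 and 26.0 CPM in shArid3a (log2 fold change 1.09, SE 0.18, edgeR adjusted p = 0.0221). That call was lost without shArid3a replicate 1 or 3 or miR-125b replicate 2 or 3. Gp1ba, lower in every miR-125b library than in either shArid3a library, missed the threshold (log2 fold change -1.16, SE 0.25, edgeR adjusted p = 0.0537), and 5 of 14 alternative fits called it. Treml1 was at 9.77, 14.5 and 18.4 CPM in miR-125b, below the 25.8 and 21.6 CPM in shArid3a, and did not pass the test (log2 fold change -0.74, SE 0.30, edgeR adjusted p = 0.296). Treml2 and Gp6 overlapped, with log2 fold changes of 0.31 (SE 0.17, edgeR adjusted p = 0.458) and 0.49 (SE 0.45, edgeR adjusted p = 0.684). Of the 8 genes, 1 was called, beside 1.35% of the 14004 genes tested. Arid3a itself was lower in miR-125b than in shArid3a (log2 fold change -1.13, SE 0.19, edgeR adjusted p = 0.0240).

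At 48 h, none of the 8 genes was called between the libraries labelled Arid3a and LUC by edgeR, beside 0.0% of the 13495 genes tested; 1 gene had an unadjusted p under 0.05, beside 21.4% of all genes tested, and DESeq2 called 1, beside 10.6% of the 11370 genes it gave an adjusted p, Treml2 in each case. Treml2 was at 366.5, 364.2 and 363.9 CPM in the libraries labelled Arid3a and at 308.4, 301.6 and 324.8 CPM in LUC (log2 fold change 0.22, SE 0.06, edgeR adjusted p = 0.106). It was the 1 gene of the 8 without overlap, beside 27.5% of all genes tested. Several of the other values turned on replicate 1 of the libraries labelled Arid3a. Treml1 was at 75.0 CPM there and at 6.73 and 11.3 CPM in the other 2, against 18.2, 6.12 and 19.0 CPM in LUC.

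In that replicate, Gp9 (113.3 CPM) was 2.61 times, Clec1b (10.3 CPM) 2.56 times, Gp5 (186.4 CPM) 2.15 times and Gp1ba (38.6 CPM) 1.99 times the mean of the other 2, whereas Gp1bb (0.840 times), Gp6 (0.580 times) and Treml2 (1.01 times) were not raised. The α-granule genes Pf4 and Ppbp were 3.48 and 40.5 times the mean of the other 2 there, and Itga2b 1.10 times. The summed level of 9 mast cell and basophil markers was 164.2 CPM in it and 2.29 and 43.3 CPM in the other 2, and its part in the receptor values was not tested. Without it, the log2 fold change of Treml1 went from 1.11 (SE 0.89) to -0.68, that of Gp9 from 0.52 to -0.10, that of Gp5 from 0.48 to 0.01 and that of Clec1b from 0.63 to 0.02. Gp1ba went from 0.00 to -0.41 and was then called (edgeR adjusted p = 0.0401), as was Treml2, among 3198 genes in all.

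Whether the 2 Arid3a interventions differed in their effect was tested as the difference of the 2 log2 fold changes, in a fit of all 14 Gata1s libraries. Treml2 was called, with a difference of 1.50 (SE 0.18, edgeR adjusted p = 0.00310), and was called in all 19 alternative fits with values from 1.45 to 1.72. Gp6 had a difference of 1.54 (SE 0.56, edgeR adjusted p = 0.0704), which 4 of 19 alternative fits called. The remaining 6 genes had positive differences, from 0.25 (Gp1bb) to 1.73 (Clec1b, SE 0.80, edgeR adjusted p = 0.145), and did not pass the test. The 1 called gene stands beside 17.9% of 14884 genes tested, 1354 of them with a positive and 1316 with a negative difference (1888 and 604 with library totals alone). Duration of doxycycline and control construct change together with the intervention here and cannot be told apart from it.

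**Figure D4:**
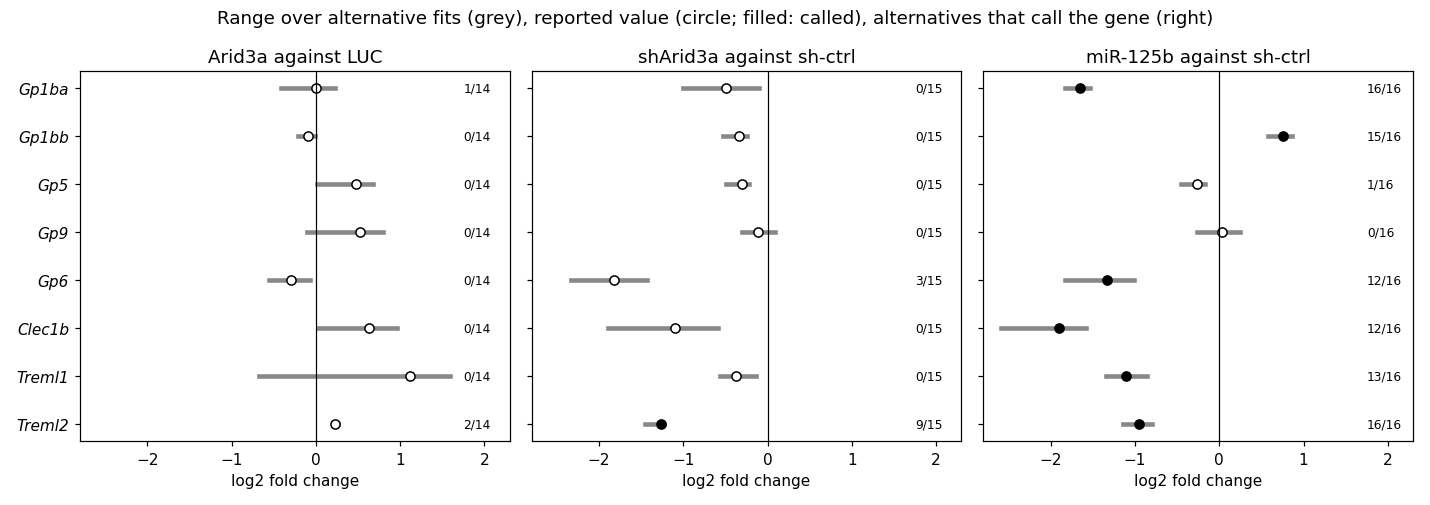
Reported log2 fold change of each gene (circle, filled where called), its range over the alternative fits (grey bar) and the number of alternatives that called it (right), in 3 comparisons. Treml1 in the libraries labelled Arid3a ranged from -0.68 to 1.59, while Gp1ba and Treml2 stayed below 0 in every fit of miR-125b against sh-ctrl.

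Genes around the receptors were read from lists written from general knowledge, and their counts with miR-125b stand beside the 24.4% of all genes called in that comparison, 12.1% higher and 12.2% lower. Of 28 genes listed for signalling by GPVI or CLEC-2, inhibitory receptors included, 11 were called with miR-125b, 3 higher and 8 lower. The median log2 fold change of the 28 was -0.31, and with library totals alone 12 were called, all lower. The 3 with the smallest adjusted p were Src, a tyrosine kinase (-1.23, SE 0.19, edgeR adjusted p = 0.00564), Ubash3a, a phosphatase-family regulator (-0.91, SE 0.17, edgeR adjusted p = 0.00791), and Ceacam1, an inhibitory receptor (-1.79, SE 0.34, edgeR adjusted p = 0.00924). The 3 that rose, named after their values were seen, were Fcer1g, the γ-chain partner of GPVI (0.54, SE 0.18, edgeR adjusted p = 0.0480), Fyn, a Src-family kinase (0.56, SE 0.13, edgeR adjusted p = 0.0153), and Ptpn6, the phosphatase SHP-1 (0.69, SE 0.21, edgeR adjusted p = 0.0374). With library totals alone these 3 kept a positive sign but were not called (edgeR adjusted p = 0.106, 0.0739 and 0.0805). Fcer1g was at 315.8 ± 20.5 CPM in miR-125b and 214.3 ± 41.0 CPM in sh-ctrl (SD, n = 3), opposite in direction to Gp6.

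**Figure D5:**
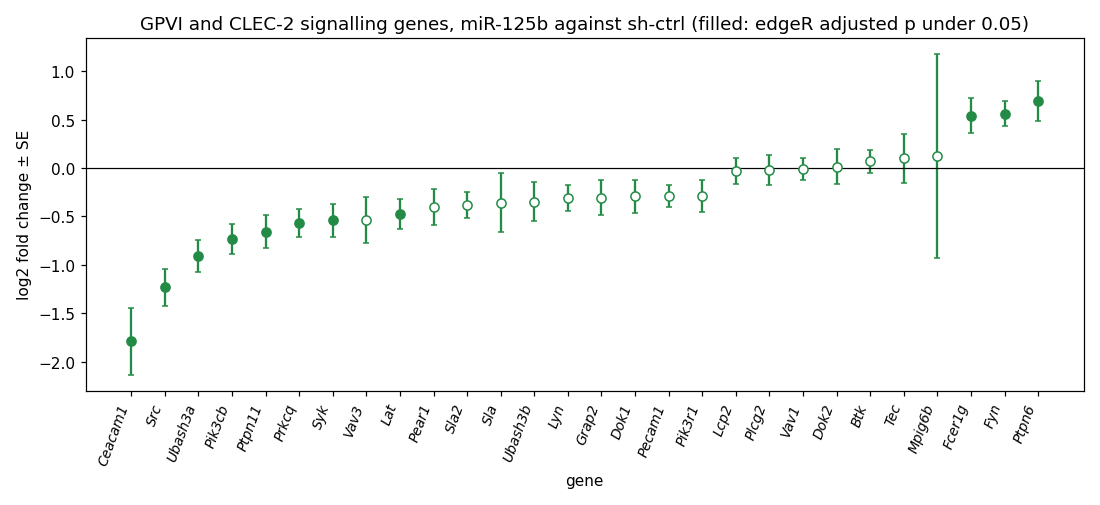
Log2 fold change with its SE of 28 genes of GPVI and CLEC-2 signalling in miR-125b against sh-ctrl, ordered by value; filled points have an edgeR adjusted p under 0.05. Ceacam1 had the lowest value (-1.79) and Ptpn6 the highest (0.69).

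Among 9 tested genes of GPIb ligands and partners, 2 were called with miR-125b, a share near the 24.4% of all genes, both lower: Vwf, the ligand of GPIbα (-1.70, SE 0.40, edgeR adjusted p = 0.0171), and Thbs1, thrombospondin 1 (-2.27, SE 0.57, edgeR adjusted p = 0.0208). Vwf was at 12.6 to 19.2 CPM in sh-ctrl and 2.25 to 7.89 CPM in miR-125b. None of 4 listed partners of CLEC-2 and the TLTs, podoplanin and the fibrinogen chains, passed the low-count filter. Of 6 tested genes of receptor shedding, Capn2, a calpain subunit, rose (1.60, SE 0.24, edgeR adjusted p = 0.00561) and Timp3, a metalloproteinase inhibitor, fell (-4.23, SE 0.95, edgeR adjusted p = 0.0144) from at most 4.30 CPM in sh-ctrl.

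Of 20 other megakaryocyte surface receptors, 8 were called with miR-125b, 2 higher and 6 lower, beside 24.4% of all genes, including Itgb3, the β-chain of the fibrinogen receptor (-1.68, SE 0.26, edgeR adjusted p = 0.00605), the glucose transporter gene Slc2a3 (-2.10, SE 0.33, edgeR adjusted p = 0.00609) and the tetraspanin gene Tspan9 (-4.10, SE 0.66, edgeR adjusted p = 0.00621). Of 19 cytoplasm and granule genes, Treml1 among them, 6 were called, 3 in each direction, which is close to the share over all genes. With library totals alone, 2 were called higher and 6 lower. Serpine2, a protease inhibitor, rose (1.27, SE 0.14, edgeR adjusted p = 0.00210), as did the G protein subunit gene Gng11 (2.44, SE 0.54, edgeR adjusted p = 0.0142), while Nbeal2, needed for α-granules, fell (-1.05, SE 0.17, edgeR adjusted p = 0.00616). Of 21 regulators of late megakaryocyte genes, 4 were called, 2 in each direction, a share below that over all genes (1 higher and 8 lower with library totals alone): among them Ets1, an ETS factor, rose (2.79, SE 0.62, edgeR adjusted p = 0.0142) from at most 0.805 CPM in sh-ctrl, while Mafk (-0.83, SE 0.16, edgeR adjusted p = 0.00937) and Etv6 (-0.52, SE 0.12, edgeR adjusted p = 0.0154) fell. Gata1 was at 345.9 ± 91.3 CPM in miR-125b and 474.4 ± 123.1 CPM in sh-ctrl (SD, n = 3; edgeR adjusted p = 0.162).

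In the hairpin comparison edgeR called none of the tested genes of these lists. In the signalling list, 12 of 28 had an unadjusted p under 0.05, beside 25.8% of all genes tested, and DESeq2 called 6 of 28, beside 10.3% of the 12831 genes it gave an adjusted p. The same 2 counts were 8 and 5 of 20 for the other surface receptors and 9 and 4 of 21 for the regulators. They were 5 of 19 and 2 of 18 for cytoplasm and granules, 4 and 2 of 9 for GPIb ligands and partners, and 2 and 1 of 6 for shedding. The median log2 fold change was -0.34 for the signalling list, -0.43 for the other surface receptors, -0.48 for cytoplasm and granules, -0.43 for the 8 receptor genes, -0.49 for GPIb ligands and partners and -0.02 for all genes, so the receptors' median was no lower than those of 3 of these lists. In the libraries labelled Arid3a against LUC edgeR likewise called none, with 9 of 28 signalling genes at an unadjusted p under 0.05, beside 21.4% of all genes tested, and 8 of 27 called by DESeq2, beside 10.6%. There the 2 counts were 6 of 20 and 4 of 18 for the other surface receptors, 9 and 2 of 21 for the regulators and 3 and 2 of 18 for cytoplasm and granules. They were 3 of 9 and 1 of 7 for GPIb ligands and partners, and 3 and 1 of 6 for shedding. The difference between the 2 Arid3a interventions was called for 9 of 28 signalling genes, all with a positive value, beside 17.9% of all genes (12 of 28, all positive, with library totals alone). These were led by Syk (1.14, SE 0.22, edgeR adjusted p = 0.0110), Pik3r1 (1.10, SE 0.22, edgeR adjusted p = 0.0116) and Vav3 (1.42, SE 0.30, edgeR adjusted p = 0.0126). The difference was also called for 7 of 21 regulators (6 positive, 1 negative) and 5 of 20 other surface receptors (4 positive, 1 negative). It was called, always positive, for 3 of 19 cytoplasm and granule genes, 1 of 9 GPIb ligands and partners and 1 of 6 shedding genes.

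Neighbours in the genome did not share the receptors' values throughout. Treml1 (chr17:48359916-48367174, plus strand) and Treml2 (chr17:48300038-48312534, plus strand) lie in the Trem cluster (GRCm38), where Trem1, Trem2 and Treml4 were at most 1.36 CPM in every sh-ctrl and miR-125b library. Of the 5 tested genes listed for that cluster, 1 was called with miR-125b, beside 24.4% of all genes, namely Nfya, a CCAAT-binding factor subunit (-0.82, SE 0.18, edgeR adjusted p = 0.0142). Clec1b (chr6:129397297-129409335, plus strand) lies in the Clec cluster, where Clec12a rose with miR-125b (3.99, SE 0.52, edgeR adjusted p = 0.00361) from 0.222 ± 0.0581 to 3.63 ± 1.86 CPM (SD, n = 3). Clec9a, which overlaps Clec1b on the same strand, was at most 1.24 CPM in any library of sh-ctrl and miR-125b. Like Clec1b it was lower in value with miR-125b, but it was not called (-2.83, SE 1.13, edgeR adjusted p = 0.0893). With the hairpin its value was -2.44 (SE 1.29, edgeR adjusted p = 0.256). The part of shared reads in the Clec1b values was not tested. Gp6 (chr7:4363965-4397744, minus strand) has Rdh13 nearby, at 21.7 ± 0.776 CPM in sh-ctrl and 17.4 ± 2.70 CPM in miR-125b (SD, n = 3; edgeR adjusted p = 0.179).

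Across the 6 groups each gene had its own order of levels, which is a description, since tables, doxycycline and transgenes differ between the groups. Gp1ba was highest in sh-ctrl (52.8 ± 8.04 CPM) and lowest in miR-125b (17.01 ± 2.20 CPM), and from sh-ctrl through shArid3a and the libraries labelled Arid3a to LUC each neighbour overlapped the next. Gp1bb was highest in LUC (57.5 ± 7.08 CPM), where it overlapped miR-125b, and lowest in WT (22.3 ± 6.12 CPM), which overlapped shArid3a. In WT the overlapping gene Sept5 stood above Gp1bb, as given above. Gp9 was highest in miR-125b (110.5 ± 36.0 CPM) and lowest in WT (27.2 ± 5.97 CPM), with WT below the rest. Gp6 was highest in sh-ctrl (18.1 ± 3.24 CPM) without overlap with LUC, the next. Treml2 was highest in sh-ctrl (383.5 ± 20.8 CPM), and of its neighbours in order only miR-125b and shArid3a overlapped. On the per-length scale, Gp9 or Treml2 was the most abundant of the 8 transcripts in every group, and Clec1b the least abundant in every Gata1s group (0.404 ± 0.266 CPM per kilobase in miR-125b, SD, n = 3).

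In WT cells, all libraries lay below all LUC and sh-ctrl libraries for 5 of the 8 genes, beside 27.9% of 12278 genes with a mean of at least 1 CPM, and above them for 1 gene, beside 26.3%. The 5 were Gp1ba, Gp5, Gp9, Gp6 and Treml2, and Gp1ba left that list under library totals alone and under TMM within each table. Gp5 was at 55.5, 47.4 and 45.3 CPM in WT and at 73.4 to 103.2 CPM in the 2 control groups. Clec1b was the gene above: it was at 25.1, 20.1 and 16.2 CPM in WT, against 4.86, 2.55 and 4.51 CPM in LUC and 10.6, 6.09 and 6.37 CPM in sh-ctrl. Treml1 was at 39.0, 36.7 and 32.0 CPM in WT, within the span of the controls, and Gata1 at 67.8 ± 5.64 CPM in WT against 302.5 ± 11.96 CPM in LUC (SD, n = 3). No test was made across tables, and Gata1 editing, doxycycline, second transgene and table cannot be told apart there. Marker levels of several cell types moved with this comparison, and their part in it was not tested. The summed megakaryocyte markers given above were lower in WT, but of the 6, Ppbp (66.9 to 76.9 CPM in WT, at most 35.4 CPM in LUC and sh-ctrl) and Tubb1 (16.5 to 23.0 CPM, at most 2.48 CPM) were higher there. Besides the granulocyte and monocyte markers given above, the summed mast cell and basophil markers were higher in WT (1266 to 1500 CPM, at most 98.3 CPM in LUC and sh-ctrl), as were those of stem and progenitor cells (523.2 to 598.2 CPM, at most 38.2 CPM), macrophages (136.9 to 156.5 CPM, at most 8.24 CPM), lymphoid cells (24.1 to 27.0 CPM, at most 1.54 CPM) and endothelial cells (13.4 to 17.6 CPM, at most 2.86 CPM).

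Likeness between genes was taken as Pearson's r of log2 CPM over the 14 Gata1s libraries, after subtracting each table's mean, as a description over libraries that share groups and scaling. Gp1ba and Gp1bb ran opposite (r = -0.75). Gp6 was most like Treml2 among the 8 genes (r = 0.86), and Gp5, Gp9 and Treml1 were like each other (r = 0.78 to 0.80), a likeness that includes the raised replicate 1 of the libraries labelled Arid3a. Among 9083 genes with a mean of at least 5 CPM, the most like Gp1ba was Dgkg (r = 0.97), the most like Gp1bb was Tnip1 (r = 0.97) and then Serpine2 (r = 0.94), and the most like Gp6 was Thbs1 (r = 0.93). Treml2 was most like Klhl24 (r = 0.96), Treml1 most like Nfatc2 (r = 0.93), Gp5 most like Syngr1 (r = 0.91), Gp9 most like Dhrs3 (r = 0.91) and Clec1b most like Lrmp (r = 0.89).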

How the data were processed

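Gene counts of 17 RNA sequencing libraries were used as deposited: the authors' 3 tables hold whole-number read counts per gene, not normalized. Per the labels' protocols, RNA was extracted with a Zymo kit and libraries followed standard Illumina methods. The submitters' processing notes name fastp, HISAT2 2.0.5, featureCounts and mm10; annotation, strand setting and treatment of shared reads are not given in the sources used here. Tables were joined by Ensembl identifier, and every count column had a sample (0 without one). Groups come from the labels. No 2 libraries of a group agreed within counting noise (lowest chi-square per degree of freedom 10.3).

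Levels are CPM with TMM factors over all libraries. Tests used edgeR 4.0.16 in R 4.3.3 (TMM within the fit, filterByExpr, quasi-likelihood, 1 term per group), one fit per table and one over both Gata1s tables for the difference of effects; scripts were tested on simulated data. SEs were derived from the F statistics. Log scales for likeness used a prior count of 2. DESeq2 1.42.0, other scalings and filters, a replicate block and leaving out each library were alternatives. Replicate numbers were checked by correlating same-numbered libraries' deviations from their group means. Between miR-125b and sh-ctrl, same-numbered libraries had r = 0.427, 0.151 and 0.294, and differently numbered ones -0.364 to 0.206. Same-numbered libraries had a positive r in every pair of groups compared. The ranges of same-numbered and differently numbered libraries overlap and no label says what a number marks, so a pairing is not settled. The main fits did not pair libraries.

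The 8 genes, the lists and the rule for named genes (all members, Arid3a and Gata1, up to 3 called genes per list by adjusted p, the 3 most alike genes by r, and listed neighbours) were chosen with earlier results of these data known. Counts are reads without molecular identifiers. Symbols and gene positions are those deposited with the counts. Untranslated regions and the positions of seed matches are from GENCODE M21, where 99.95% of the matched genes overlapped their deposited position.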

Additional observations from a re-analysis of the deposited data

Results flagged for a closer look

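The effects of the 2 Arid3a interventions on Treml2 differed by 1.50 on the log2 scale (SE 0.18, edgeR adjusted p = 0.00310). The value against LUC in the libraries labelled Arid3a was the higher one, at 0.22, and was not called (edgeR adjusted p = 0.106). The value of shArid3a against sh-ctrl was -1.26. All 3 libraries labelled Arid3a were above all LUC libraries, and both shArid3a libraries were below all sh-ctrl libraries. Counts of the mouse Arid3a gene do not show the transgene in the libraries labelled Arid3a. Duration of doxycycline and control construct change together with the intervention and cannot be told apart from it.

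The effects of miR-125b and of the hairpin on Gp1bb differed: the direct comparison gave a log2 difference of 1.09 (SE 0.18, edgeR adjusted p = 0.0221), with all 3 miR-125b libraries above both shArid3a libraries. The value was 1.03 to 1.19 when any 1 library was left out. The call was lost in most of these fits, among them those without miR-125b replicate 2 or 3. Groups of 3 libraries or fewer were not searched for outlying libraries.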

How the results depend on the processing

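Of the alternative values of single genes, 777 kept their direction and side of the threshold (group levels: stayed within 1 SD). Group levels with 1 library left out are among the 777. In groups this small such a level cannot move by 1 SD, so that part was no check. Of the other values, 22 lost a call, 15 gained one, 16 turned sign and 26 group levels moved by more than 1 SD. Of those levels, 15 moved with library totals alone and 11 with TMM within each table. With DESeq2, the calls numbered 1201 genes for the libraries labelled Arid3a, 1326 with the hairpin and 741 between miR-125b and hairpin, and 1, 2 and 2 of the 8 receptors, with 2 for the difference of effects. With no low-count filter these counts of genes were 71, 1237 and 715, with 2 receptors called for the hairpin, for miR-125b against it and for the difference. For the hairpin, 20 genes were called with library totals alone, 19 with at least 10 counts in every library, 19 with the robust fit, 1972 in the fit of all 14 Gata1s libraries (2 receptors) and 0 without the ribosomal RNA-like genes (0 receptors). Between miR-125b and hairpin, the strict filter and the robust fit each called 2 receptors. Gp9 with miR-125b turned to -0.14 with library totals alone. The cause of these changes was not tested.

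Under the replicate block, 1187 genes and 2 receptors were called for the difference of effects, and Gp1ba in the libraries labelled Arid3a turned to -0.0789. The replicate block left 6 receptors called with miR-125b and changed no other receptor call. Same-numbered libraries of LUC and the group labelled Arid3a correlated by 0.157, 0.365 and 0.0046, and differently numbered ones by -0.346 to 0.201. Same-numbered libraries of sh-ctrl and shArid3a correlated by 0.432 and 0.161, and differently numbered ones by -0.432 to 0.365. The ranges overlap and the hairpin comparisons share only 2 numbers, so these numbers were not taken as pairs.

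Leaving out 1 library at a time leaves fewer samples to estimate the spread. The genes called then ranged from 0 to 3198 in the libraries labelled Arid3a (receptors 0 to 2), from 2 to 11 with the hairpin (0 throughout), from 734 to 2872 with miR-125b (2 to 6), from 12 to 329 for miR-125b against the hairpin (0 to 1) and from 53 to 3361 for the difference of effects (1 to 2), with the lowest count without shArid3a replicate 3. In these fits the libraries labelled Arid3a gave -0.41 to 0.22 for Gp1ba, -0.10 to 0.80 for Gp9 and -0.68 to 1.59 for Treml1. Gp9 ranged from -0.242 to 0.092 with the hairpin, from -0.26 to 0.25 with miR-125b and from -0.15 to 0.33 between the 2. Between the 2, Gp5 ranged from -0.049 to 0.126 and Gp6 from -0.0069 to 1.01. The difference of effects for Treml1 ranged from -0.30 to 1.97. Depth limits Clec1b most, with 29 to 129 reads in the miR-125b libraries. Where leaving out a shArid3a library left 1, that library was assumed to vary like the other groups.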
